A study of Mus musculus with 25 samples.

Results

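Gja1, Fgfr3, Aqp4, Slc1a2, Slc1a3, Aldh1l1, Fabp7, Glul, Ndrg2 and Aldoc are 10 genes expressed in astrocytes and in radial glia, and their histone marks were followed through a chemical treatment of mouse fibroblasts. They were taken by symbol from a table of 24221 genes, and all 10 were present. Chromatin immunoprecipitation and sequencing had been done for H3K4me3, H3K27ac, H3K4me1 and H3K27me3, with 1 library for each mark and stage. The D0 cells, labelled tdMEFs, were in fibroblast medium with serum. The D4 and D8 cells were the same kind of cell after 4 and 8 days in M9, a serum-free medium, under lower oxygen. M9 holds CHIR99021, LDN193189, A83-01, Hh-Ag1.5, retinoic acid, SMER28, RG108, Parnate and bFGF, so every later library carries the medium, the agents and the oxygen change together. The series' design text attaches the name ciNSLC to day 0, while the labels of the samples say tdMEFs, and the labels were used. The labels give neither a strain nor an age of the source animals, nor whether animals were pooled.

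Radial glia are the stem cells of the developing brain, and astrocytes arise from them late in development. Astrocytes clear glutamate from synapses, return it to neurons as glutamine, buffer water and ions, and are joined to each other by gap junctions. H3K4me3 lies at promoters that are active or poised, H3K27ac at active promoters and enhancers, H3K4me1 around enhancers, and H3K27me3 is the product of Polycomb repressive complex enzymes. Several of these genes are also used outside the brain, Gja1 and Glul broadly, so a mark on them is not particular to glia.

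The 10 genes did not move as a group. Aldh1l1 and Ndrg2 had more H3K4me3 in the M9 libraries than at D0 by more than most genes did, Gja1 stood near the top of all genes in H3K4me3 at every stage and in H3K27ac at D4 and D8, and Fgfr3 had more H3K27me3 at D8. Slc1a3 kept both H3K4me3 and H3K27me3 at all 3 stages, and its standing in H3K4me3 was lower in the later libraries. Slc1a2 stayed among the genes with much H3K27me3. No member was 2-fold lower in that mark after normalization, and the lowest normalized changes at D8 were those of Fabp7, -0.69, and Aqp4, -0.51. In RPM the D8 to D0 ratio of Fabp7 was 0.484. Each culture was profiled in bulk, so more cells with a mark and more mark per cell cannot be told apart.

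Values are RPM (reads-per-million) of the library, as deposited. Depth ran from 1.58 M reads for H3K27ac at D0 to 34.9 M for H3K4me3 at D8. In the H3K27ac library of D0, 1 read is worth 0.632 RPM and the 10 genes rest on 1.22 to 6 reads each, which leaves any H3K27ac difference from D0 poorly determined. H3K4me3 values summed over genes took 18.8%, 28.5% and 53.9% of the reads of the D0, D4 and D8 libraries. The median ratio of H3K4me3 at D8 to D0 was 3.13 over the compared genes, those that pass the level filter given next, with signal at D0. A ratio of the median gene, here and below, is such a median over compared genes and not over all genes. The median deposited log2 change at D8 was 1.51 over the 13401 compared genes and 1.04 over all genes. Changes are therefore log2 differences after quantile normalization of the 3 libraries of a mark, and a gene is called when it differs at least 2-fold (a log2 change of 1) and the larger of its 2 deposited values reached the median of the mark. Ratios are of deposited RPM, with exact intervals of the reads that cover counting error only. Nothing was replicated, so there is no p-value and every difference is one between single libraries. Fibroblast genes stood high throughout: the median percentile of 14 of them among all genes in H3K4me3 was 98.3, 98.0 and 94.8 in the 3 libraries, against 48.0, 50.5 and 52.9 for the 10 glial genes. Summed H3K4me3 of the fibroblast genes was 451, 595 and 827 RPM, a smaller rise at D8 than the median ratio of 3.13 over compared genes. After normalization 4 of the 14 were called lower at D8 against D0 and 0 higher, beside 1.67% and 5.88% of all compared genes. Genes this near the top can gain little by quantile normalization. At D8 markers of neurons had a median percentile of 46.0, oligodendrocytes 31.6, endothelium 32.0, blood 17.3 and neural crest 41.2. What share of the glial values other cells gave was not tested. The D0 libraries also differ from the later ones in sex-linked signal, since H3K4me3 of Xist was 1.03, 41.1 and 47.9 RPM in the order of the stages. The mean of 5 Y-linked genes over the autosomal mean was lower at D4 and D8 in all 4 marks, at 1.29, 0.484 and 0.347 in H3K4me3, 0.951, 0.311 and 0.286 in H3K27ac, 0.590, 0.187 and 0.225 in H3K4me1, and 0.677, 0.130 and 0.193 in H3K27me3. All 10 genes are autosomal, and the part of that difference in the comparisons with D0 was not tested.

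**Figure D1:**
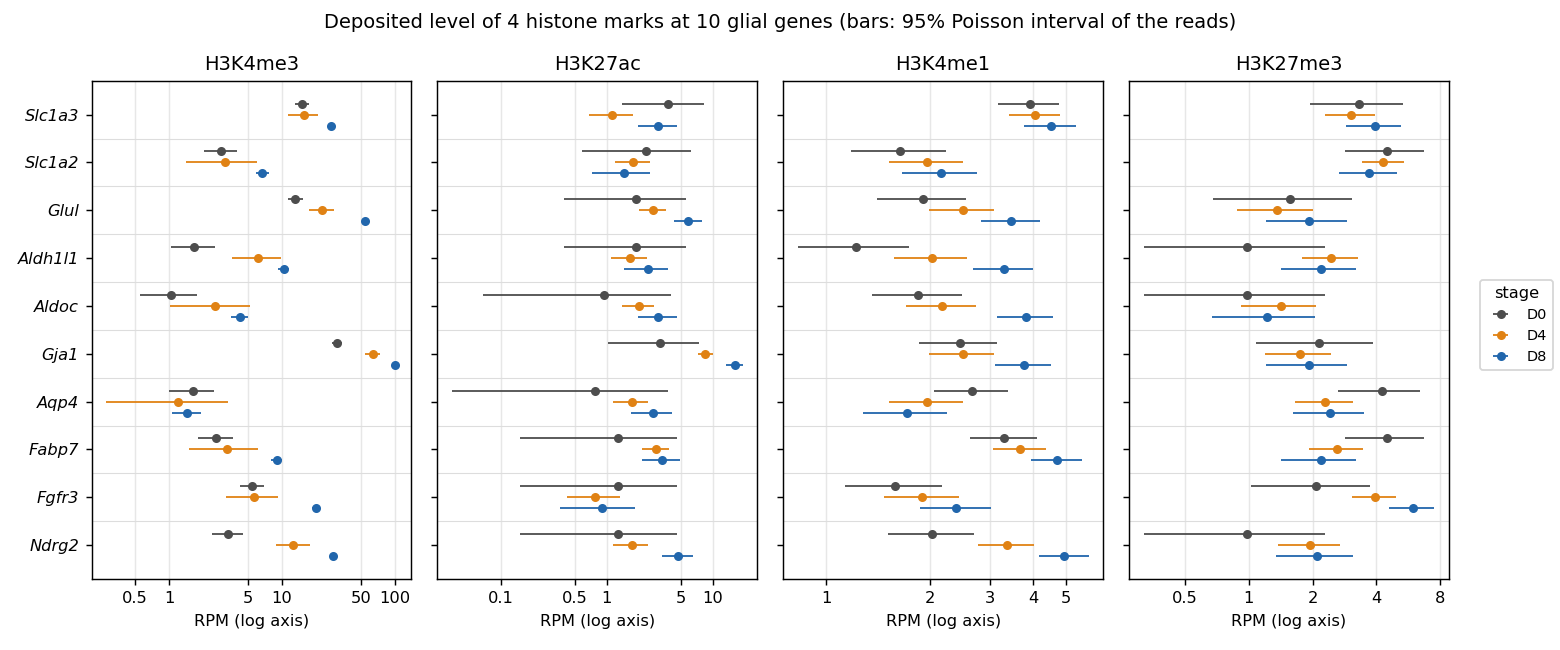
Deposited level of each mark at the 10 genes, in RPM on a log axis with a scale of its own in each panel. Points are the libraries of D0, D4 and D8 and bars are 95% Poisson intervals of the reads. H3K4me3 of Gja1 was highest, from 30.8 to 100.6 RPM, and the H3K27ac bars of D0 are wide.

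The promoter windows scored for these genes are mostly poor in CpG, the dinucleotide that is dense at housekeeping and many developmental promoters. RefSeq promoter windows of 300 bases on GRCm38.p6 were used for 9 of the 10 genes, all but Aqp4. By a ratio of observed to expected CpG of at least 0.6 and a GC content of at least 50%, 2 of the 9 were CpG-rich, Fgfr3 and, in the last of its 3 windows, Ndrg2. Among the 17210 genes of the table with a window, 48.8% were CpG-rich. The 6 members that carry the contrasts below are shown by the 250 bases before an annotated start, 5′ to 3′ on the strand of the gene, with each CpG in capitals. Fgfr3 (chr5:33721474-33721723, plus strand) holds the densest run of CpG, Gja1 (chr10:56377050-56377299, plus strand) and Aldh1l1 (chr6:90550543-90550792, plus strand) hold a few, and Ndrg2 (chr14:51914005-51914254, minus strand) is shown at its most upstream start. Fabp7 (chr10:57784673-57784922, plus strand) and Slc1a2 (chr2:102706188-102706437, plus strand) lie at the poor end. The Slc1a2 window belongs to an internal start, and the most upstream start of that gene was not scored.
Fgfr3: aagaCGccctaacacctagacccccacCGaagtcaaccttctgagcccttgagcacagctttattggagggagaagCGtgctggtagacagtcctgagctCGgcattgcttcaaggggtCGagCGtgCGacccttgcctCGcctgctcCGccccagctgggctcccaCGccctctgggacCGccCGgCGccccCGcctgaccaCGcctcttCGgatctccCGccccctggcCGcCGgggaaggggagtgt
Ndrg2: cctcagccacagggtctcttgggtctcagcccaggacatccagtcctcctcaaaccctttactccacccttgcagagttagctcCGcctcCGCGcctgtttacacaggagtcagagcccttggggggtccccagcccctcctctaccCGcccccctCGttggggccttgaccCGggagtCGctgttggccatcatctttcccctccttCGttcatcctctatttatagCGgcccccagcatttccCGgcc
Gja1: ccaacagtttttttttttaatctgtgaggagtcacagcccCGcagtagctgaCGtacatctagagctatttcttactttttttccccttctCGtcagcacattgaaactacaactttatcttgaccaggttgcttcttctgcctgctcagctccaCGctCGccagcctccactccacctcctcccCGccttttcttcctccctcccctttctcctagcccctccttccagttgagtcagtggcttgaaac
Aldh1l1: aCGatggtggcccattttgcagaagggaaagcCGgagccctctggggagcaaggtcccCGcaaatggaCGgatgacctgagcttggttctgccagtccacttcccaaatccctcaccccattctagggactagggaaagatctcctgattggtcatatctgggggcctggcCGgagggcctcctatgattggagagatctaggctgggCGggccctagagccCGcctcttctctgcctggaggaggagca
Fabp7: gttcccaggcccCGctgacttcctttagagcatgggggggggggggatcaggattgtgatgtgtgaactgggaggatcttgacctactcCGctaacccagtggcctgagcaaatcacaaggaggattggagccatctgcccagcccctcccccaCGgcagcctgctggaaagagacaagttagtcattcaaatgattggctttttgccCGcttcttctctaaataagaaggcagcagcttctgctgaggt
Slc1a2: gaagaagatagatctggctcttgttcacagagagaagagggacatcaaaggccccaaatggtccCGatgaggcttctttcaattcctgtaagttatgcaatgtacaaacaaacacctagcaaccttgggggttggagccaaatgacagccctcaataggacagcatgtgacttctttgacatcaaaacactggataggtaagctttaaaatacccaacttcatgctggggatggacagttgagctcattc

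Over the 300-base windows the ratio of observed to expected CpG was 0.726 and 0.778 in the Fgfr3 pair, 0.559 in Glul, 0.544 in Gja1, 0.333 in Aldh1l1, 0.276 in Fabp7, 0.197 in Slc1a3 and 0.0641 in Slc1a2. In the 3 windows of Ndrg2 it was 0.433, 0.483 and 0.607, so its CpG-rich class rests on the last window, just past the limit of 0.6. The Ndrg2 bases printed above are from the first window. The low values of Slc1a2 and Slc1a3 come from 1 and 3 CpG in their windows. CpG class goes with the level of H3K4me3 in these libraries: CpG-rich genes had median percentiles of 73.5, 73.4 and 73.9 at the 3 stages, and CpG-poor genes 30.6, 30.0 and 29.5. Of the 7 CpG-poor members, Gja1, Glul, Slc1a3, Slc1a2 and Fabp7 stood above that CpG-poor median at every stage, and Aldh1l1 and Aldoc stood below it at D0 and above it later. The class of Slc1a2 is that of its internal window only. The 2 CpG-rich members lay below the CpG-rich median at every stage, Fgfr3 at percentiles 55.8, 50.1 and 56.4 and Ndrg2 at 49.4, 62.1 and 63.8. For H3K27me3 the medians were 47.7, 40.0 and 39.8 for CpG-rich genes and 50.9, 59.8 and 61.0 for CpG-poor ones. Fgfr3 was above both at every stage, and Ndrg2, at 23.1, 59.8 and 61, was below the CpG-rich median at D0 and above it later.

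Short motifs were searched on both strands of the 300-base windows. The 9 genes have 13 windows, and a gene is named where any of its windows holds the motif, whereas the shares are of single windows. GCGTG and ACGTG, the cores of the hypoxia response element, are in 32.4% and 19.6% of all 32851 windows. Gja1, Fgfr3, Ndrg2 and Aldoc hold GCGTG, and Slc1a3 and Aldoc hold ACGTG. The nuclear receptor core AGGTCA was found in Slc1a2, Aldh1l1, Fabp7, Glul and Ndrg2 and in 16.3% of all windows. TGGGAA, the RBPJ core of the Notch pathway, was found in Aldh1l1, Fabp7 and Aldoc (25.6% of all windows), and TTGGCA, the NFI core, in Aldoc (14.1%). CAGCTG, an E-box, was in Fgfr3, Slc1a2 and Glul (16.3%), and TATAAA, the TATA box, in Slc1a3 and Ndrg2 (13.6%). Neither SOX motif, ACAAAG (18.7%) or ACAATG (12.6%), was in any window of the 9 genes. Counted by window as the shares are, of the 13 windows GCGTG was in 7, ACGTG in 2 and AGGTCA in 5. TGGGAA was in 4, TTGGCA in 1, CAGCTG in 3 and TATAAA in 2. These are matches of letters and not sites of binding.

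The first genes by role are those of the glutamate cycle, 2 transporters and an enzyme. Slc1a3 (chromosome 15, 8634124 to 8710807) encodes GLAST, the glutamate transporter of radial glia and astrocytes. Its H3K4me3 was 15.1 RPM in D0 cells (95% Poisson interval 13.1 to 17.4), 15.5 in D4 cells (11.2 to 20.9) and 27 in D8 cells (25.3 to 28.8). The level in RPM was thus no lower at any later stage, but the gene stood at percentiles 81.2, 67.4 and 62.6, and after quantile normalization the change was -0.52 at D4 and -0.76 at D8. The D8 to D0 ratio of 1.79 (95% interval 1.53 to 2.1) lies below the 3.13 of the median gene.

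Slc1a3 H3K27ac was 3.79 RPM in D0 cells (95% Poisson interval 1.39 to 8.25), 1.12 in D4 cells (0.675 to 1.75) and 3.05 in D8 cells (1.96 to 4.54). The dip at D4 against D0 was past 2-fold, with a log2 change of -1.15 and a ratio of 0.296 (95% interval 0.114 to 0.905). It rests on 6 reads at D0, and with the median change subtracted from deposited values in place of quantile normalization it was -0.92. From D4 to D8, where both libraries are deeper, the ratio was 2.72 (95% interval 1.43 to 5.25), against 1.49 for the median gene. The normalized change of 0.73 stayed under 2-fold. H3K4me1 at the gene was 3.91, 4.05 and 4.5 RPM in the order of the stages, and its percentile went from 95.7 to 83.5 and 72.4. H3K27me3 was 3.33, 3.04 and 3.92 RPM, at percentiles 85.7, 88.4 and 92.1. Slc1a3 therefore carried above-median H3K4me3 together with upper-quartile H3K27me3 at each stage.

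Slc1a2 (chromosome 2, 102658239 to 102790784), whose product GLT-1 takes up most synaptic glutamate in the adult forebrain, had little H3K4me3. It stood at 2.9, 3.12 and 6.69 RPM at D0, D4 and D8, just below the median level of all genes at percentiles 46.6, 42.9 and 46.1. The D8 to D0 ratio of 2.31 (95% interval 1.62 to 3.36) came to a normalized change of -0.05. H3K27me3 was the mark in which it stood high, with 4.5 RPM in D0 cells (95% Poisson interval 2.85 to 6.75), 4.32 in D4 cells (3.42 to 5.38) and 3.69 in D8 cells (2.66 to 4.98). These intervals overlap across the 3 stages, and the gene was among the highest 10% at each. H3K27ac was 2.32, 1.77 and 1.44 RPM, down in percentile from 53.2 to 36.7 and 19.3. The deposited value of Slc1a2 is a mean over 3 regions, Fgfr3's over 5, Aqp4's over 9 and Aldoc's over 2, and their intervals treat that mean as the reads of 1 region.

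Glul (chromosome 1, 153899929 to 153909723) encodes glutamine synthetase, which turns glutamate into glutamine in astrocytes and in many other tissues. H3K4me3 was 13.1 RPM in D0 cells (95% Poisson interval 11.2 to 15.3), 22.7 in D4 cells (17.5 to 29.1) and 54.1 in D8 cells (51.7 to 56.6). Its percentile went from 76.4 to 80.1 and 87.2, and the D8 to D0 ratio of 4.11 (95% interval 3.51 to 4.85) was somewhat above that of the median gene, with a normalized change of 0.40. H3K27ac was 1.9 RPM in D0 cells, 2.72 in D4 cells and 5.85 in D8 cells. Between the deeper D4 and D8 libraries the ratio was 2.15 (95% interval 1.4 to 3.31), against 1.49 for the median gene. H3K27me3 stayed between 1.36 and 1.92 RPM. The values of Glul are identical to those of Mir8114, a microRNA gene at its start, so they are the values of a shared region.

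Aldh1l1 and Aldoc are metabolic enzymes used as astrocyte markers. Aldh1l1 (chromosome 6, 90550768 to 90599171), the cytosolic formyltetrahydrofolate dehydrogenase of folate metabolism, had H3K4me3 of 1.66 RPM in D0 cells (95% Poisson interval 1.03 to 2.54), 6.13 in D4 cells (3.57 to 9.81) and 10.3 in D8 cells (9.29 to 11.5). The D0 interval ends below the start of both later ones. Against D0 the ratio was 3.69 (95% interval 1.83 to 7.34) at D4 and 6.21 (95% interval 4.0 to 10.2) at D8, where the median gene had 1.58 and 3.13. Normalized log2 changes were 1.62 and 1.42, and the percentile went from 26.8 to 50.9 and 49.4. Even so the gene only reached the middle of the distribution. With the median change subtracted from deposited values instead, the changes were 0.69 and 0.41, short of 2-fold.

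The other marks of Aldh1l1 were mixed. H3K4me1 was 1.22 RPM in D0 cells (95% Poisson interval 0.825 to 1.74), 2.03 in D4 cells (1.58 to 2.57) and 3.29 in D8 cells (2.67 to 4.01), and its D8 to D0 ratio of 2.69 (95% interval 1.77 to 4.2) gave the highest normalized H3K4me1 change of the 10 genes, 0.69. H3K27me3 was 0.978 RPM in D0 cells (95% Poisson interval 0.318 to 2.28), 2.44 in D4 cells (1.78 to 3.27) and 2.18 in D8 cells (1.41 to 3.22), the D0 value being 5 reads, with normalized changes of 0.65 at D4 and 0.46 at D8. H3K27ac was 1.9, 1.65 and 2.42 RPM at D0, D4 and D8, and the intervals of the 3 overlap. H3K4me3 and H3K4me1 were thus higher in RPM beyond counting error, whereas the D4 to D0 ratio of H3K27me3, 2.49 (95% interval 0.993 to 8.05), has an interval that reaches 1. H3K4me1 ratios of the median gene were 1.29 at D4 and 1.63 at D8. The Aldh1l1 ratio at D4, 1.66 (95% interval 1.07 to 2.64), has an interval that holds 1.29.

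Aldoc (chromosome 11, 78323073 to 78327781), the brain form of the glycolytic enzyme aldolase, had H3K4me3 of 1.03 RPM in D0 cells (95% Poisson interval 0.548 to 1.76), 2.52 in D4 cells (1.01 to 5.2) and 4.2 in D8 cells (3.55 to 4.94). The value was higher at each stage, but both ends lie under the 5.41 RPM that a comparison required, so its normalized change of 1.05 at D8 was not counted. H3K4me1 was 1.85 RPM in D0 cells, 2.17 in D4 cells and 3.81 in D8 cells, a D8 to D0 ratio of 2.06 (95% interval 1.45 to 2.97) against 1.63 for the median gene. H3K27ac was 0.948, 2.01 and 3.05 RPM, and H3K27me3 was low at 0.978, 1.41 and 1.22 RPM. Spag5 lies 615 bases from Aldoc and Pigs 640 bases, and whether the counted region held signal from either was not tested.

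Gja1 and Aqp4 serve the membrane exchange of astrocytes. Gja1 (chromosome 10, 56377300 to 56390419) encodes the main connexin of astrocyte gap junctions and is also a connexin of fibroblasts. Its H3K4me3 was 30.8 RPM in D0 cells (95% Poisson interval 27.8 to 34), 63.8 in D4 cells (54.8 to 73.9) and 101 in D8 cells (97.3 to 104). Few genes of these libraries stood higher, as it was at percentiles 98.5, 99.7 and 99.4. Its D8 to D0 ratio of 3.27 (95% interval 2.94 to 3.64) was close to that of the median gene, with a normalized change of 0.22. A gene so near the top can gain little more by quantile normalization, which limits what that value can show.

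H3K27ac of Gja1 was 3.16 RPM in D0 cells (95% Poisson interval 1.03 to 7.37), 8.5 in D4 cells (7.17 to 10.0) and 16 in D8 cells (13.3 to 19.1). Against D0 the ratio was 2.69 (95% interval 1.13 to 8.41) at D4 and 5.07 (95% interval 2.12 to 15.9) at D8, and the normalized changes of 1.44 and 1.32 were both past 2-fold. The D0 value is 5 reads. Its percentile was 71.6 at D0 and 98.9 and 98.5 later. Between D4 and D8 the ratio was 1.88 (95% interval 1.47 to 2.41) and the normalized change -0.11, so the standing of the gene was level there. H3K4me1 was 2.44, 2.5 and 3.76 RPM and H3K27me3 2.15, 1.74 and 1.92 RPM, both near the middle of their libraries. Higher H3K27ac than at D0 was not particular to Gja1. Of 14 housekeeping genes, 3 were called higher at D4 and 4 at D8, beside 7.53% and 6.93% of all compared genes, and 0 lower. Their median normalized changes were 0.67 and 0.61, and their median percentiles 80.7, 95.5 and 96.1 at D0, D4 and D8. Whether Gja1 differs from them was not tested.

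Aqp4, on chromosome 18, encodes the water channel of astrocyte endfeet. It was the member with the least H3K4me3 at D4 and D8, 1.62 RPM in D0 cells (95% Poisson interval 0.995 to 2.49), 1.2 in D4 cells (0.277 to 3.34) and 1.44 in D8 cells (1.07 to 1.89), and those intervals overlap throughout. While most genes had more H3K4me3 in RPM at D8, its ratio to D0 was 0.888 (95% interval 0.521 to 1.57). H3K27me3 was 4.24 RPM in D0 cells (95% Poisson interval 2.65 to 6.44), 2.29 in D4 cells (1.65 to 3.09) and 2.42 in D8 cells (1.61 to 3.51). The D4 to D0 ratio was 0.54 (95% interval 0.315 to 0.953) and the D8 to D0 ratio 0.571 (95% interval 0.314 to 1.05), and neither normalized change, -0.50 and -0.51, reached 2-fold. H3K4me1 was 2.66 RPM in D0 cells, 1.97 in D4 cells and 1.71 in D8 cells, the only member whose level of that mark was lower at both later stages. H3K27ac was 0.772, 1.72 and 2.73 RPM, the first of these from close to 1 read.

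Fabp7, Fgfr3 and Ndrg2 belong to radial glia and to astrocyte growth control. Fabp7 (chromosome 10, 57784923 to 57788450) encodes the brain lipid-binding protein, a classical marker of radial glia. H3K27me3 was 4.5 RPM in D0 cells (95% Poisson interval 2.85 to 6.75), 2.6 in D4 cells (1.92 to 3.45) and 2.18 in D8 cells (1.41 to 3.22), and the percentile went from 94 to 81.5 and 64.5. The D8 to D0 ratio was 0.484 (95% interval 0.264 to 0.893), while the median gene had 1.0, and the normalized change of -0.69 stayed short of 2-fold. H3K4me3 was 2.61 RPM in D0 cells, 3.25 in D4 cells and 9.01 in D8 cells, with a normalized change of 0.49 at D8 and a percentile never above 48.2. H3K4me1 was high for a gene with so little H3K4me3, 3.3, 3.67 and 4.7 RPM at percentiles 86.9, 75.7 and 75.3. H3K27ac was 1.26, 2.89 and 3.31 RPM, from 2 reads at D0.

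Fgfr3 (chromosome 5, 33721724 to 33737068) encodes a fibroblast growth factor receptor found in radial glia and astrocytes. Its H3K27me3 was 2.07 RPM in D0 cells (95% Poisson interval 1.02 to 3.75), 3.94 in D4 cells (3.08 to 4.95) and 5.93 in D8 cells (4.61 to 7.52). The D8 to D0 ratio was 2.86 (95% interval 1.49 to 6.08). By the normalized change, 1.05, Fgfr3 was the only member past 2-fold in this mark, and by little. By the deposited ratio at D8, Aldh1l1 at 2.23 (95% interval 0.838 to 7.45) and Ndrg2 at 2.14 (0.80 to 7.18) passed 2-fold too, with intervals that reach 1. Fabp7, at 0.484, passed it downward. For Fgfr3 the ratio from D4 to D8 was 1.51 (95% interval 1.07 to 2.13), and the percentile went from 60.4 to 94.3 and 97.4. H3K4me3 was 5.46 RPM in D0 cells (95% Poisson interval 4.25 to 6.92), 5.62 in D4 cells (3.19 to 9.19) and 20.0 in D8 cells (18.5 to 21.5), and its normalized change was -0.62 at D4 and 0.06 at D8, so the gene held its place near the median. H3K27ac was 1.26 RPM in D0 cells, 0.779 in D4 cells and 0.89 in D8 cells, among the lowest 10% of genes at D4 and D8.

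Ndrg2 (chromosome 14, 51905271 to 51914004), a member of the NDRG family that is abundant in astrocytes, had H3K4me3 of 3.33 RPM in D0 cells (95% Poisson interval 2.4 to 4.5), 12.6 in D4 cells (8.79 to 17.6) and 28.3 in D8 cells (26.6 to 30.1). None of the 3 intervals overlap. Its ratio was 3.79 (95% interval 2.35 to 6.09) at D4 and 8.51 (95% interval 6.25 to 11.9) at D8, both against D0, and the normalized changes were 1.16 and 1.25. With the median change subtracted instead, the D4 change was 0.96. H3K4me1 was 2.04 RPM in D0 cells (95% Poisson interval 1.51 to 2.69), 3.35 in D4 cells (2.76 to 4.02) and 4.94 in D8 cells (4.17 to 5.8). The D8 to D0 ratio was 2.42 (95% interval 1.75 to 3.41), against 1.63 for the median gene. H3K27ac was 1.26 RPM in D0 cells, 1.71 in D4 cells and 4.7 in D8 cells. The D8 to D4 ratio was 2.75 (95% interval 1.64 to 4.63), against 1.49 for the median gene. Ndrg2 was thus higher at D8 than at D4 in the 3 marks of active chromatin in RPM, and its normalized D8 to D4 changes were 0.08, 0.77 and 0.14 for H3K4me3, H3K27ac and H3K4me1. H3K27me3 was 0.978, 1.95 and 2.09 RPM, from 5 reads at D0.

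**Figure D2:**
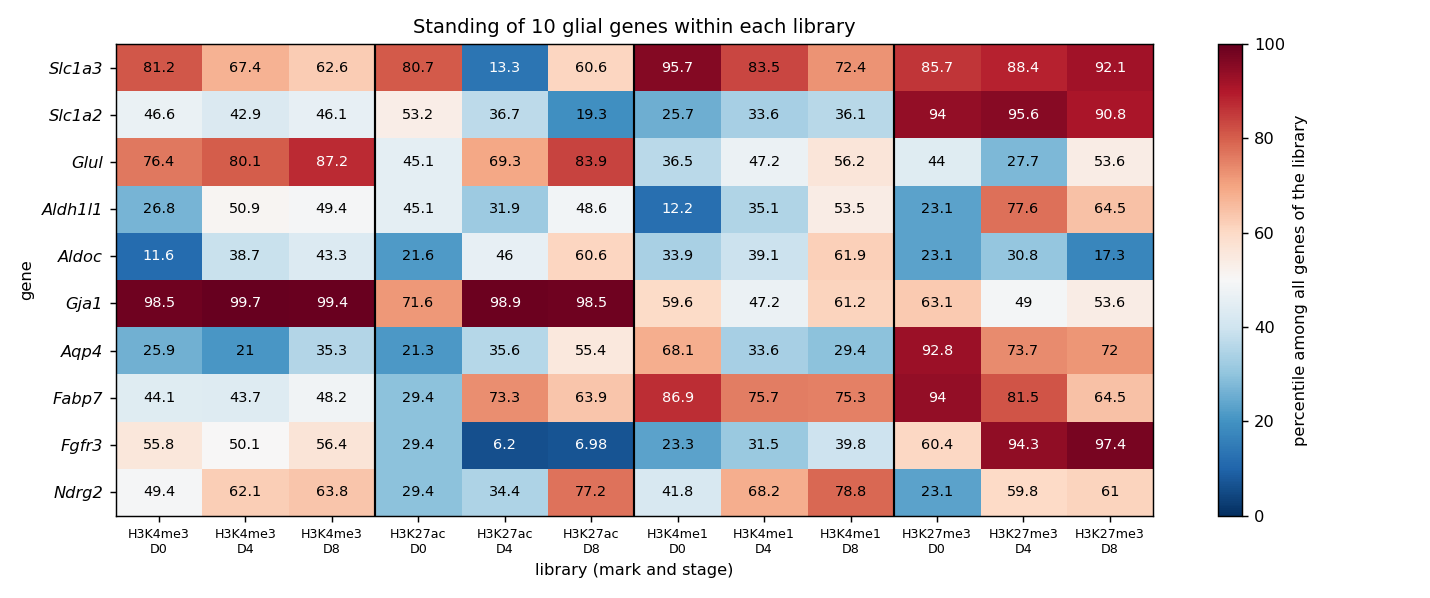
Percentile of each of the 10 genes among all genes of a library (colour and number), with the 12 libraries in columns grouped by mark. Gja1 was at 98.5 or above in H3K4me3 at every stage, and Slc1a2 was at 90.8 or above in H3K27me3.

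Counted over the 10 genes, H3K4me3 was higher in RPM at D4 than at D0 in 9 genes, at D8 than at D0 in 9, and at D8 than at D4 in 10. After quantile normalization 2 of the 6 compared at D4 against D0 were at least 2-fold higher, where 3.76% of all 12327 compared genes were, and 0 were lower, where 1.21% were. At D8 against D0 it was 2 of 8 higher, beside 5.88% of all genes, and 0 lower, beside 1.67%. That level filter reads deposited values, which are larger at D8. On normalized values, an alternative chosen after seeing the data, it gave 3.74% higher and 3.24% lower of all genes and 1 member higher, Ndrg2. At D4 against D0 the same filter gave 3.32% higher and 2.82% lower. At D8 against D4 it was 0 of 8 in either direction, beside 1.03% higher and 0.432% lower. The called genes were Aldh1l1 and Ndrg2 in both comparisons with D0, which share the D0 library. Both lay under the 5.41 RPM filter at D0 and entered through the later, higher value, so the count is a description and not support for a gain. The median normalized change over the 10 genes was 0.05, 0.31 and 0.30 for D4 against D0, D8 against D0 and D8 against D4. As deposited, 3 of 6, 6 of 8 and 4 of 8 were at least 2-fold higher, beside 13.6%, 90.6% and 40.9% of all genes.

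For H3K27ac, 1 of 5 compared genes was higher at D4 than at D0 (Gja1, beside 7.53% of all genes) and 1 was lower (Slc1a3, beside 6.83%). At D8 against D0 it was 1 of 9 higher (Gja1, beside 6.93%) and 0 lower (6.26%), and at D8 against D4 0 of 8 in either direction (0.537% higher and 0.479% lower). The median normalized changes were 0.12, 0.52 and 0.23. Each of these counts is a single gene, so the counts say little beside backgrounds of this size. H3K4me1 had 0 of 6, 0 of 8 and 0 of 7 members past 2-fold in the 3 comparisons, and it passed 2-fold higher in 0.109%, 0.1% and 0% of all genes and lower in 0.0801%, 0.16% and 0%. H3K27me3 had 0 of 8 at D4 against D0 (1.35% of all genes higher, 1.1% lower), 1 of 9 higher at D8 against D0 (Fgfr3, beside 1.82%) and 0 lower (1.76%), and 0 of 9 at D8 against D4 (0.135% and 0.0834%). Its median normalized changes were 0.08, 0.00 and 0.01. No call of a member in any mark held with a pseudocount 4 times larger.

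**Figure D3:**
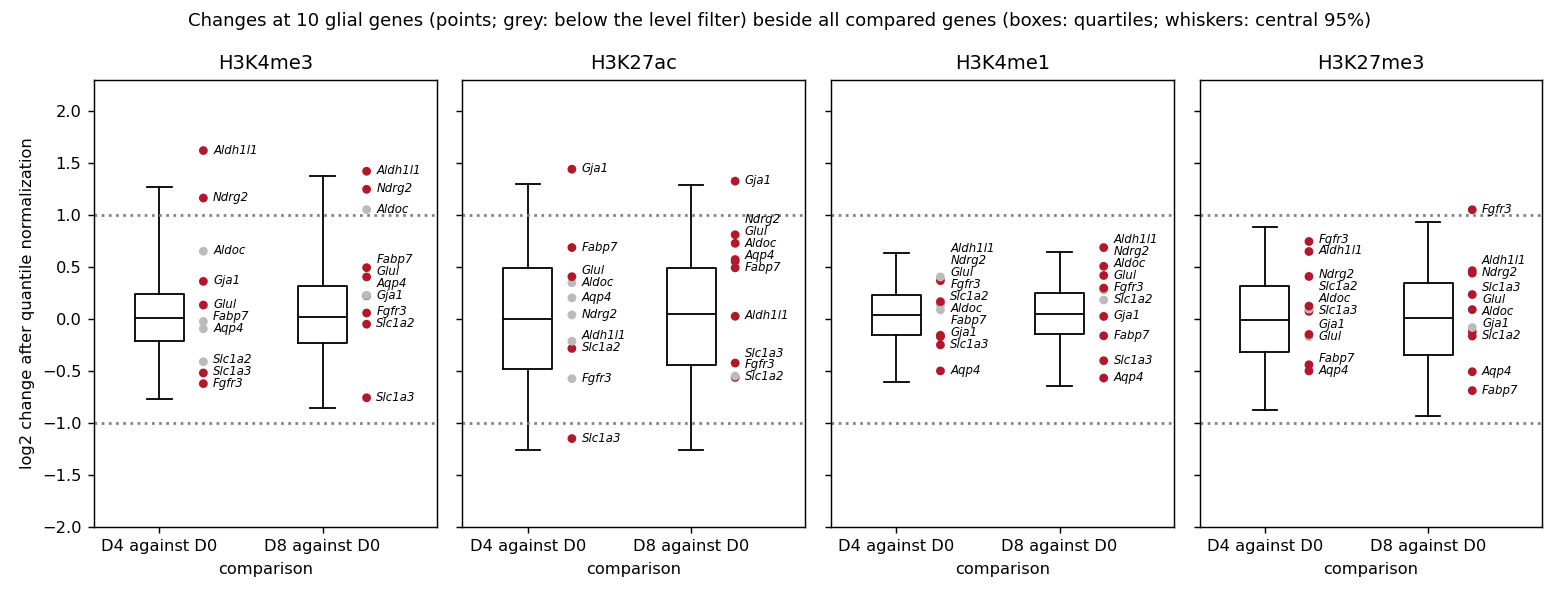
Log2 change after quantile normalization of the 10 genes (red points, grey where the gene was below the level filter) for D4 against D0 and D8 against D0, by mark. Boxes are quartiles of all compared genes with whiskers that span the central 95% of genes, and dotted lines mark 2-fold. Aldh1l1 in H3K4me3, at 1.62 and 1.42, lies above both whiskers.

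H3K4me3 and H3K27me3 together on a gene are often read as a poised state. A gene was counted as carrying both where it reached the median of all genes in H3K4me3 and the upper quartile in H3K27me3 of the same stage. At D0 this held for Slc1a3 alone, 1 of the 10, beside 8.97% of all genes. At D4 it held for 3, Fgfr3, Slc1a3 and Aldh1l1, beside 5.57%, and at D8 for 2, Fgfr3 and Slc1a3, beside 6.05%. Fgfr3 at D4 (percentile 50.1 in H3K4me3) and Aldh1l1 at D4 (50.9 and 77.6) lie close to those limits. The upper quartile of H3K27me3 by itself held Aqp4, Slc1a2, Slc1a3 and Fabp7 at D0, Fgfr3, Slc1a2, Slc1a3, Aldh1l1 and Fabp7 at D4, and Fgfr3, Slc1a2 and Slc1a3 at D8. Both marks in bulk chromatin can come from the same or from different cells, which cannot be told apart.

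**Figure D4:**
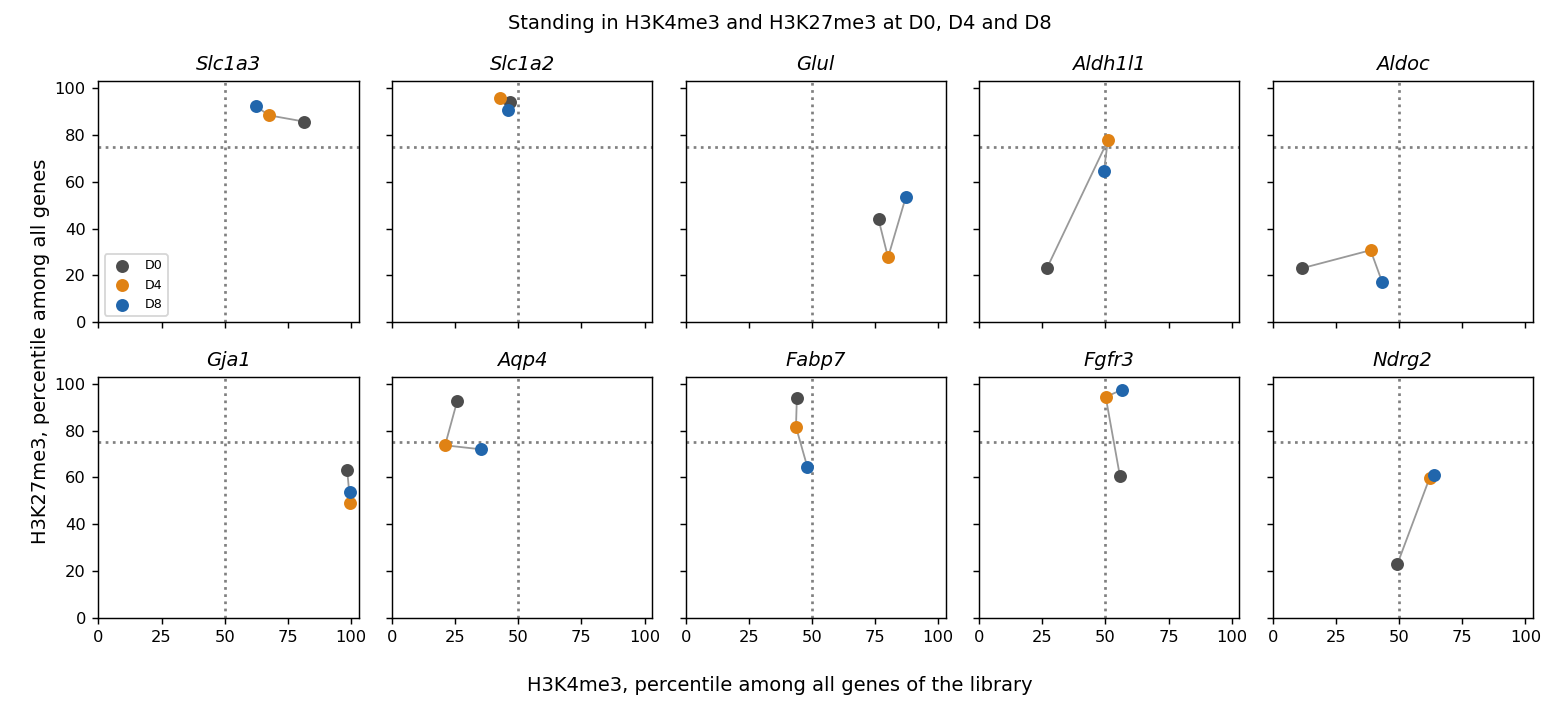
Percentile in H3K4me3 (horizontal) against percentile in H3K27me3 (vertical) for each gene at D0, D4 and D8, with dotted lines at the median and the upper quartile. Slc1a3 lies in the upper right field at all 3 stages, Fgfr3 enters it at D4, and Fabp7 moves down from 94 to 64.5.

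Another 50 genes of astrocytes and radial glia were counted beside the 10. In H3K4me3, 3 of the 24 compared were higher at D4 than at D0 and 2 were lower, and at D8 4 of 31 were higher and 0 lower. Beside these stand 3.76% (higher) and 1.21% (lower) of all compared genes for D4, and for D8 5.88% and 1.67%. Nes, the intermediate filament of neural progenitors, had the largest gain, with 3.25, 14.8 and 39.6 RPM at the 3 stages (normalized change 1.40 and 1.76). Slc13a5, a citrate transporter, went from 0.871 RPM at D0 to 7.86 at D8 (1.59). Both lay under the 5.41 RPM filter at D0 and entered through the later, higher value. So did Pla2g7 and Dio2, called at D4, and Ttyh1, called at D8. Of the genes called higher only Fgfbp3, with 9.50 RPM at D0 and 64.8 at D8 (1.07), was over the filter at D0. The counts of gains are thus a description and not support for a gain. Ednrb, the endothelin receptor of glia, had the largest called loss, 5.62 RPM at D0 and 3.97 at D4 (-1.09). At D8 it had 9.20 RPM, above D0, and a normalized change of -0.86 that was not called. Gfap, the intermediate filament of astrocytes, had 0.713, 1.08 and 0.947 RPM of H3K4me3 at D0, D4 and D8, below the level filter, and S100b had 1.5, 1.08 and 1.23 RPM.

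In H3K27ac 2 of 28 of these 50 genes were higher at D4 and 2 lower, and 2 of 39 were higher at D8 and 1 lower. Of all compared genes 7.53% were called higher and 6.83% lower for D4, and for D8 6.93% and 6.26%. Lrig1, a receptor regulator of quiescent stem cells, had the largest gain at D4 (1.90 RPM at D0 and 7.20 at D4, 1.65) and at D8 (9.79 RPM, 1.23). Cd44, the hyaluronan receptor, which fibroblasts also use, had the largest loss, with 20.2, 6.79 and 8.39 RPM (-1.28 and -1.80). H3K27me3 was higher in 2 of 39 and lower in 1 at D4, and higher in 2 of 40 and lower in 0 at D8, where all genes gave 1.35% and 1.1% at D4 and 1.82% and 1.76% at D8. Entpd2, an ectonucleotidase of neural stem cells, had the largest gain at D8, 1.17 RPM at D0 and 5.06 at D8 (1.19). Its D0 value lay under the 1.76 RPM filter, so it entered through the later value. H3K4me1 passed 2-fold in none of the 50 genes.

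Which genes had a pattern most like each member was measured by the Euclidean distance of normalized log2 levels over the 12 libraries. Among the 10 themselves the closest pair was Aqp4 with Aldoc, at 1.71, and the most distant was Gja1 with Aqp4, at 8.27. Genes outside the group were closer, as can happen by number alone, since each member has 9 others in the group and the rest of the table outside it. Glul was nearest to Htt (0.390) and Gpn3 (0.419), Slc1a2 to Mal2 (0.554) and Ikzf1 (0.558), and Aldoc to Col7a1 (0.558) and Cideb (0.695). Slc1a3 was nearest to Hey1 (0.691) and Sfrp1 (0.872), and Gja1 to Ddx6 (0.643) and Naa50 (0.711). For Aldh1l1 the nearest were Parvb (0.708) and Shroom2 (0.768), for Ndrg2 Gm16938 (0.705) and Gm5424 (0.710), and for Fgfr3 Fam222a (0.947) and Neurl1b (0.968). Aqp4 was nearest to Mylpf (0.571) and 4930579P08Rik (0.60), and Fabp7 to Syne1 (0.986) and Cfap100 (1.02).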

How the data were processed

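The authors deposited 1 table of RPM (reads-per-million) per gene. That unit is inferred from the values, of which 93.5% to 94.7% per library are whole multiples of 1 step within 0.02 of a read; the others look like means over several regions of a gene. The build is mm10 per the file headers. The submitters' processing notes name bedtools, SAMtools 0.1.19, Bowtie 1.1.0 and CASAVA 1.8.4. What region was counted, and whether reads were extended or duplicates dropped, is not given in the sources used here. Across genes, Spearman's rho of RPM with annotated gene length was 0.0531 to 0.329. Levels of different genes are read as percentiles, which carry the same dependence on gene length.

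Of 20 value columns, 12 matched a labelled library by name, and 8 matched none and were not used. From 24453 rows, 27 symbols turned into dates and 205 genes at 0 throughout were dropped. Values were quantile-normalized within a mark in Python 3.11.15 with pandas 2.3.3. The log2 change had a pseudocount c equal to the 25th percentile of positive values (1.44, 1.53, 1.63 and 1.30 RPM for H3K4me3, H3K27ac, H3K4me1 and H3K27me3), which understates changes of low genes. The level filters were 5.41, 2.18, 2.49 and 1.76 RPM in that order. The calculation was tested on simulated data. Intervals are 95% exact Poisson or conditional binomial intervals (SciPy 1.17.1). They hold counting error alone, because each mark and stage has 1 library. PCR copies were not told apart by molecular identifiers, and copies counted as reads would leave the intervals too narrow.

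All 10 genes were named in every comparison, with their called relatives, the largest changes of the other list and 2 nearest genes each. Members and lists were chosen with earlier results of these data known. Alternatives were deposited values, subtraction of the median change, a pseudocount 4 times smaller or larger, and no filter.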

Additional observations from a re-analysis of the deposited data

How the results depend on the processing

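No paired analysis was possible because each mark and stage has 1 library, and for the same reason no replicate could be left out. Counts are of the 10 genes at least 2-fold higher. In H3K4me3 at D4 against D0 the 2 calls became 0 with the median change subtracted and 0 with a pseudocount 4 times larger. At D8 against D0 the 2 calls became 6 as deposited, 1 with the median subtracted, 3 with no filter (Aldoc added, at 1.05), 0 with the larger pseudocount and 1 with the level filter on normalized values, an alternative chosen after seeing the data. At D8 against D4 the 0 became 4 as deposited. In H3K27ac the 1 at D4 against D0 became 0 with the larger pseudocount, the 1 at D8 against D0 became 3 as deposited, 2 with a pseudocount 4 times smaller and 0 with the larger, and the 0 at D8 against D4 became 2 with the smaller. In H3K4me1 the 0 at D8 against D0 became 1 with the smaller pseudocount, and in H3K27me3 the 1 at D8 against D0 became 0 with the larger. The larger pseudocount shrinks every change by construction; other causes were not tested. With the median subtracted, Aldh1l1 in H3K4me3 had log2 changes of 0.69 at D4 and 0.41 at D8, Ndrg2 0.96 at D4, and Slc1a3 in H3K27ac -0.92 at D4. Genes with both H3K4me3 and H3K27me3 went from 1 to 0 at D0 and from 3 to 1 at D4 when the highest 10% of H3K27me3 was required, and from 3 to 0 at D4 and 2 to 0 at D8 when the upper quartile of H3K4me3 was. Of 120 changes of single genes, 23 turned sign as deposited and 25 with the median subtracted, and 0 turned under the pseudocounts or filters. Depth limits H3K27ac at D0 most.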

Other observations

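Relatives of the 10 genes, 66 in 9 lists, give further values. In H3K4me3 at D8 against D0, 36 were compared, and 2 of them were at least 2-fold lower, beside 1.67% of all compared genes. Gjd3, a connexin like Gja1, had 1.82 RPM at D0 and 12 at D8 (log2 change after quantile normalization 1.51), and the connexin Gja4 was at 1.04. Fabp3, the heart form of the fatty acid binding proteins, had 1.90, 7.21 and 16.1 RPM at the 3 stages (1.72 and 1.8), where Fabp7 was not called. Fgfr4 had 0.713 RPM at D0 and 5.51 at D8 (1.41). Gjd3, Gja4, Fabp3 and Fgfr4 all lay under the 5.41 RPM filter at D0 and entered through the later value. Their calls are thus a description and not support for a gain. The 2 lower genes are mitochondrial folate enzymes, Aldh1l2 (14.6 RPM at D0 and 17.2 at D8, -1.31) and Mthfd2 (23.3 and 32.7 RPM, -1.07). At D8 both were higher in RPM and lower only after normalization. At D4 both were lower than at D0 in RPM too, Aldh1l2 at 10.5 RPM (-0.99, not called) and Mthfd2 at 13 RPM (-1.33, called), whereas Aldh1l1, the cytosolic relative of Aldh1l2, was higher on both scales at both stages. Whether members of a pair differ from each other beyond replicate spread was not tested.

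In H3K27ac 2 of 47 relatives were higher at D8 than at D0 and 9 lower, beside 6.93% and 6.26% of all compared genes. Gjc1, another connexin, was the higher with signal at all 3 stages, with 1.05, 3.38 and 6.40 RPM (1.01 and 1.17). Ndrg1, a relative of Ndrg2, had 6.95, 1.42 and 2.80 RPM at the 3 stages (-1.8 and -1.33), while its H3K4me3 at D4 was higher than at D0 (19.5 against 5.15 RPM, 1.06). Slc1a7 had 5.69, 1.12 and 1.65 RPM of H3K27ac (-1.70 and -1.46). Few reads stand behind the D0 values.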
